A study of Homo sapiens with 8 samples.

Results

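Aminoacyl-tRNA synthetases join each amino acid to its transfer RNA, and 36 genes of this family, 20 whose enzymes work in the cytosol and 16 whose enzymes work in mitochondria, were followed in 2 human colorectal cancer cell lines after knockdown of PRDX2. They were picked by name from the 25192 gene symbols in the expression files, which use the older symbols without a final 1 (AARS rather than AARS1). A cytosolic enzyme carries the plain symbol and its mitochondrial counterpart the same symbol with a 2. Every listed gene was taken whatever its change, but the family was put forward with the knockdown results of these libraries in view. Counts of members that moved are therefore descriptions, given beside the same count over all genes, and nothing is read from that comparison.

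Cytosolic synthetases supply charged transfer RNA to the ribosomes that translate nuclear mRNAs, and mitochondrial synthetases, which are encoded in the nucleus and imported, supply the ribosomes inside mitochondria. The enzymes fall into class I and class II, which have unrelated catalytic folds, and several cytosolic enzymes are held together with scaffold proteins in a multi-synthetase complex. When amino acids run short, uncharged transfer RNA activates the kinase GCN2, phosphorylation of eIF2α lowers general translation, and the transcription factor ATF4 is made instead. ATF4 binds C/EBP-ATF response elements and is known to raise genes for amino acid synthesis and transport and many cytosolic synthetases. PRDX2 encodes peroxiredoxin II (PrxII), an abundant cytosolic enzyme that removes hydrogen peroxide.

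Messenger RNA was sequenced from HT29 cells grown in McCoy's 5A medium and SW480 cells grown in RPMI1840 medium, both with fetal bovine serum. In each line 2 libraries came from cells given control siRNA and 2 from cells given PRDX2 siRNA, all at 36 h after transfection, giving 8 libraries in 4 groups. Both are established cell lines, and libraries in which PRDX2 was put back were not analysed here. The sample titles number the libraries as replicates, and the study calls the HT29 experiments duplicates. Neither says whether these were separate transfections, so that p-values measure only the spread between these libraries, which may be technical. The libraries held 8857442 to 10164137 expected counts, so 3 counts corresponded to 0.295 to 0.339 CPM, the count scaled to a library total of 1000000. The synthetases were covered by 77 to 5446 counts per gene and library, and all 36 passed the filter on low counts in both lines.

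PRDX2 mRNA fell in both lines. HT29 had 147.7 and 153.7 CPM with control siRNA and 82.35 and 83.2 CPM with PRDX2 siRNA (log2 fold change -0.87 ± 0.05). SW480 had 209.3 and 245.6 CPM against 69.43 and 70.49 CPM (-1.70 ± 0.12). The colorectal epithelial markers EPCAM, KRT18 and VIL1 were expressed in all 8 libraries, while CDH1 was at 565.8 to 584.4 CPM in HT29 and only at 25.71 to 30.2 CPM in SW480, and KRT20 was at 448.4 to 602.4 CPM in HT29 and at 0.6393 to 1.008 CPM in SW480. After knockdown the keratin genes KRT8, KRT18 and KRT19 fell in HT29 (log2 fold changes -0.14, -0.26 and -0.28) and KRT20 and CDX2 rose (0.39 and 0.58), while KRT18 was the one called in SW480 (-0.37), and their part in the results on synthetases was not tested. Among markers of fibroblasts, leukocytes and endothelium, DCN and PTPRC were at 0 in every library, and COL1A1 was the highest, at up to 25.25 CPM in an SW480 control library.

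The promoters hold the letters that the results are set beside. RefSeq start-site windows of GRCh38.p14, from 250 bases before to 50 bases after the start, were listed for 30 of the 36 genes, 16 cytosolic and 14 mitochondrial. The C/EBP-ATF response element core TGATGNAA, read on either strand, was found in 7 cytosolic genes and in 1 mitochondrial gene. These 8 sites are shown with their flanks, on the strand of the gene from 5′ to 3′, with the match in capitals.
AARS: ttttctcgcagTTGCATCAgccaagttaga
CARS: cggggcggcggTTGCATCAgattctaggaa
GARS: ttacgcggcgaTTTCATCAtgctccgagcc
IARS: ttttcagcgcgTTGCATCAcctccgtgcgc
MARS: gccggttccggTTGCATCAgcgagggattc
NARS: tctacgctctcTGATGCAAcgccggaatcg
TARS: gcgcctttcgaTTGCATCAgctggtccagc
YARS2: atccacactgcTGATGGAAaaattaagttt

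In 6 of the 7 cytosolic genes the match was the narrower TGATGCAA or its reverse complement, which no mitochondrial window held. Capitals that begin with TT are matches on the strand opposite to the gene. The stretches printed for AARS (chr16:70289675-70289704, minus strand) and YARS2 (chr12:32756076-32756105, minus strand) lie well upstream, with the match beginning at -187 and -197 from the start. The other matches lie close to the start. They begin at -33 for GARS (chr7:30594834-30594863, plus strand), -13 for IARS (chr9:92293692-92293721, minus strand), -4 for MARS (chr12:57488053-57488082, plus strand) and -2 for CARS (chr11:3057407-3057436, minus strand). In TARS (chr5:33440956-33440985, plus strand) and NARS (chr18:57621804-57621833, minus strand) the match begins inside the transcript, at positions 3 and 15.

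A site of this kind was present in 7 of 21 cytosolic promoter windows (33.3%) and in 1 of 18 mitochondrial windows (5.56%), some genes having more than one window. Over all 35116 RefSeq windows of the same length the share was 3.62%, and over the 14819 windows of genes tested in HT29 it was 1.97%. A match is a description of letters in a window, not evidence of binding. No window was listed for DARS, LARS, VARS, YARS, AARS2 and VARS2.

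Transcripts of the cytosolic enzymes were the more abundant. On the scale of TPM, which divides reads by transcript length before scaling to a common total and so allows genes to be compared, the median level was 154.4 TPM for cytosolic and 26.34 TPM for mitochondrial enzymes in HT29 with control siRNA, and 140.3 TPM and 26.65 TPM in SW480. TARS, the threonyl enzyme, had the highest mean over all libraries, at 328 ± 7.78 TPM (SD, n = 2) in HT29 and 240.5 ± 43.7 TPM in SW480 with control siRNA. GARS, the glycyl enzyme, followed at 273.2 ± 12.6 TPM and 215.3 ± 29.2 TPM, so that the order of these neighbours does not exceed their spread in SW480. The lowest cytosolic mean over all 8 libraries was that of FARSB, the β subunit of the phenylalanyl enzyme, at 60.7 ± 3.17 TPM and 52.0 ± 7.03 TPM, although VARS was lower in SW480. FARSB was at 64.2 and 59.8 CPM in the HT29 controls against 62.5 and 68.7 CPM after knockdown, and at 56.8 and 47.2 CPM against 53.8 and 55.4 CPM in SW480. Its groups overlapped in both lines.

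Among mitochondrial enzymes IARS2, the isoleucyl enzyme, was the highest, at 124.6 ± 5.23 TPM in HT29 and 139.7 ± 11.5 TPM in SW480 with control siRNA. The cytosolic medians there were 154.4 and 140.3 TPM, so that in SW480 the gap was within the spread. With PRDX2 siRNA in SW480 IARS2 was at 147.3 TPM, against a cytosolic median of 147.2 TPM. PARS2, the prolyl enzyme, had the lowest mean over all 8 libraries, at 11.1 ± 0.141 TPM and 10.3 ± 0.601 TPM, although WARS2 was lower in SW480, at 10.2 ± 1.56 TPM with control siRNA. The library values of PARS2 were 12.18 and 11.99 CPM in the HT29 controls and 12.77 and 13.36 CPM with PRDX2 siRNA. In SW480 they were 10.53 and 11.51 CPM against 11.3 and 10.89 CPM, so that the groups overlapped there. IARS2 was at 209.7 and 198.2 CPM in the HT29 controls and at 203.9 and 201.1 CPM with PRDX2 siRNA, and at 236.6 and 211.8 CPM against 215.4 and 228.6 CPM in SW480, with overlapping groups in both lines.

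**Figure D1:**
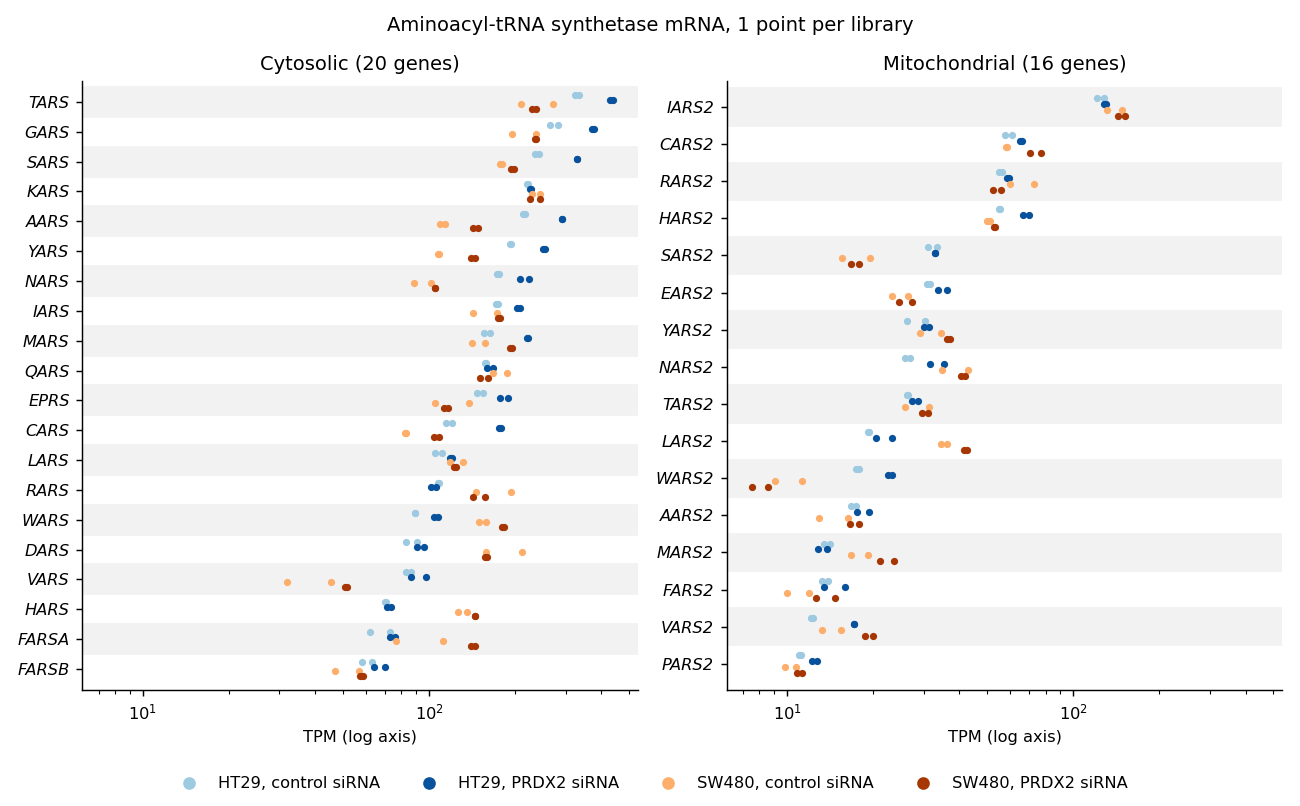
Each point is 1 library, the horizontal axis gives mRNA in TPM on a log scale, the left panel shows 20 cytosolic and the right panel 16 mitochondrial synthetases, and colours mark line and siRNA. In HT29 the dark blue points of TARS, GARS, SARS, AARS and YARS lie to the right of the light blue control points, while SW480 control points are more widely spaced than the other duplicates.

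For 15 amino acids a cytosolic and a mitochondrial enzyme from separate genes could be set side by side, EPRS counting for both glutamate and proline. GARS and KARS make the enzyme of both compartments from 1 gene each, and glutamine is served by QARS in the cytosol alone. The ratio of cytosolic to mitochondrial TPM had a median of 6.61 in HT29 and 3.54 in SW480 with control siRNA and never fell below 1.06 in any group mean. With control siRNA histidine was the closest pair in HT29, with a HARS to HARS2 ratio of 1.27, against 2.60 in SW480. The closest in SW480 was isoleucine, with an IARS to IARS2 ratio of 1.13, against 1.38 in HT29. Tryptophan had a WARS to WARS2 ratio of 5.06 in HT29 and 15.1 in SW480, the latter line having more WARS and less WARS2.

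In HT29 cells PRDX2 knockdown was accompanied by higher mRNA of 15 of the 36 synthetases, and none was called lower. Genes are called at an adjusted p under 0.05 (edgeR quasi-likelihood test, 2 against 2 libraries, Benjamini-Hochberg over all 12961 genes tested), a threshold that 17.6% of all genes passed, 7.76% in the higher and 9.82% in the lower direction. Of the cytosolic enzymes 11 of 20 rose, with a median log2 fold change of 0.18 over the 20, and of the mitochondrial enzymes 4 of 16 rose, with a median of 0.07. The median over all genes was -0.00. Without control replicate 1 the mitochondrial median was 0.03 and without control replicate 2 it was 0.10, with 3 and 2 mitochondrial calls, and 2 were also left without PRDX2 siRNA replicate 1. Both PRDX2 siRNA libraries lay above both controls for 20 of the 36 genes (12 cytosolic, 8 mitochondrial) and below them for 3, where 28.8% and 28.4% of all genes did so. All the rises were under 1.5-fold, the strongest being 1.44-fold.

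The rise in HT29 was led by CARS, the cysteinyl enzyme, which stood at 135.2 and 141.5 CPM with control siRNA and at 200.7 and 198.0 CPM with PRDX2 siRNA. Its log2 fold change was 0.53 ± 0.04 (SE; adjusted p = 1.15e-07 by edgeR). MARS, the methionyl enzyme, went from 217.5 and 209.3 CPM to 283.7 and 283.2 CPM, a log2 fold change of 0.41 ± 0.04. In both genes the 2 knockdown libraries were close to each other and clearly above the controls.

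SARS, the seryl enzyme, was at 219.0 and 227.5 CPM in the controls and at 296.1 and 296.4 CPM after knockdown, a log2 fold change of 0.41 ± 0.04. GARS, whose gene gives both the cytosolic and the mitochondrial glycyl enzyme, moved from 355.5 and 334.1 CPM to 453.7 and 448.3 CPM (0.39 ± 0.03). AARS, the alanyl enzyme, moved from 333.0 and 329.5 CPM to 428.2 and 430.9 CPM (0.37 ± 0.03). These class II enzymes act outside the multi-synthetase complex, and none of their groups overlapped.

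TARS rose from 421.4 and 412.4 CPM to 530.7 and 524.6 CPM, a log2 fold change of 0.34 ± 0.03. YARS, the tyrosyl enzyme, rose from 274.0 and 277.7 CPM to 347.5 and 344.4 CPM (0.32 ± 0.03). NARS, the asparaginyl enzyme, rose from 227.2 and 232.1 CPM to 280.7 and 263.2 CPM (0.24 ± 0.04). The asparagine synthetase gene ASNS, which makes the amino acid that NARS charges, was at 146.8 and 156.9 CPM in the controls and at 260.3 and 268.0 CPM after knockdown.

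The smallest called rises among cytosolic enzymes were those of EPRS, IARS and WARS. EPRS, a fused enzyme for glutamate and proline that belongs to both classes, was at 358.1 and 342.5 CPM against 419.0 and 394.7 CPM (0.21 ± 0.03). IARS, the isoleucyl enzyme, was at 349.3 and 356.6 CPM against 405.4 and 398.9 CPM (0.19 ± 0.03). WARS, the tryptophanyl enzyme, which is also induced by interferon, was at 89.3 and 89.62 TPM against 104.2 and 107.1 TPM (0.17 ± 0.05 from the counts, edgeR adjusted p = 0.0197).

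Of the 4 called mitochondrial enzymes VARS2, the valyl enzyme, had the largest change, from 20.0 and 20.6 CPM to 26.6 and 26.8 CPM (log2 fold change 0.40 ± 0.09, edgeR adjusted p = 0.00596). WARS2 went from 23.0 and 22.5 CPM to 28.6 and 28.0 CPM (0.31 ± 0.09, edgeR adjusted p = 0.0207). NARS2 went from 29.2 and 29.5 CPM to 36.7 and 34.0 CPM (0.27 ± 0.08, edgeR adjusted p = 0.0258). HARS2, the histidyl enzyme, went from 62.9 and 62.8 CPM to 76.4 and 73.3 CPM (0.25 ± 0.06, edgeR adjusted p = 0.00447). The groups of these 4 genes did not overlap.

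The 21 members that were not called had log2 fold changes from -0.12 to 0.12. RARS, the arginyl enzyme of the multi-synthetase complex, was the lowest, at 106.0 and 105.2 CPM against 98.6 and 95.5 CPM, with a log2 fold change of -0.12 ± 0.05 (edgeR adjusted p = 0.0929). KARS, the lysyl enzyme of both compartments, was at 209.9 and 209.7 CPM against 204.4 and 205.1 CPM (-0.04 ± 0.04). The phenylalanyl subunits FARSA and FARSB had values of 0.08 ± 0.07 and 0.08 ± 0.06 and overlapping groups.

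The called genes were spread over both enzyme classes. Among cytosolic enzymes 5 of 9 of class I and 5 of 10 of class II rose, beside EPRS. They were less evenly spread with respect to the complex, where 3 of 8 enzymes rose (EPRS, IARS and MARS, median log2 fold change 0.06), against 8 of 12 cytosolic enzymes outside it (median 0.28). That difference in shares was not tested, and 7.76% of all genes were called higher. The complex scaffold genes AIMP1, AIMP2 and EEF1E1 were not called in either line.

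Side by side, the cytosolic enzyme alone rose for 9 of the 15 amino acid pairs in HT29. The mitochondrial enzyme alone rose for histidine and valine. Both rose for asparagine (NARS 0.24, NARS2 0.27) and tryptophan (WARS 0.17, WARS2 0.31), and neither for leucine and arginine. The contrast within a pair was widest for methionine, with MARS at 0.41 and MARS2 at -0.12, and for cysteine, with CARS at 0.53 and CARS2 at 0.07, on the log2 scale. Summed over the 20 cytosolic genes the level was 3091 and 3060 TPM in the HT29 controls and 3814 and 3783 TPM after knockdown. Summed over the 16 mitochondrial genes it was 541.4 and 546.5 TPM against 611.4 and 594.8 TPM. On the TPM scale the median log2 fold change over all genes was itself 0.06 in HT29.

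**Figure D2:**
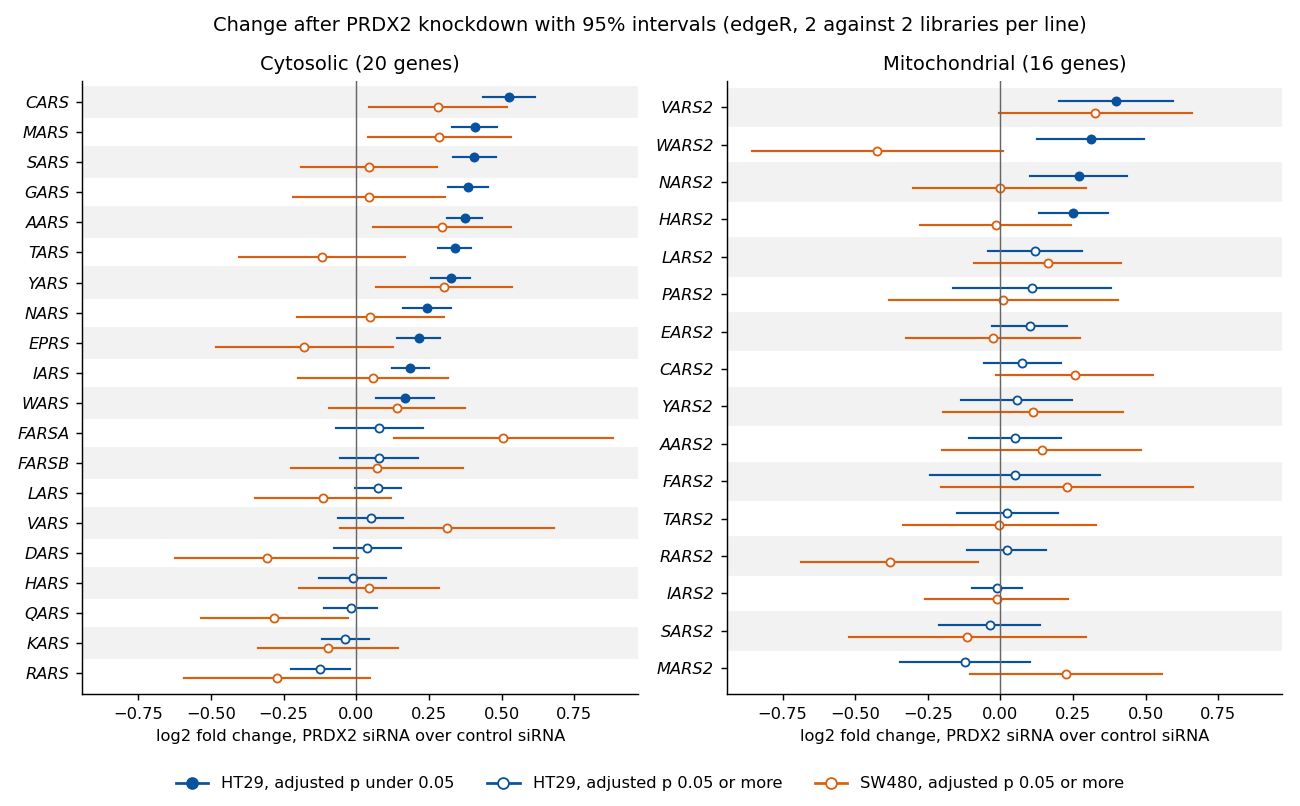
For each synthetase the point is the log2 fold change of PRDX2 siRNA over control siRNA from edgeR and the line its 95% interval, blue for HT29 and orange for SW480, with filled points at an adjusted p under 0.05. CARS leads the 15 filled points, which are all blue and to the right of 0, and the orange intervals are wider than the blue ones.

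The same 15 genes were called by limma on log2(TPM + 1), where 13.9% of all genes were called, 9.66% as higher. The split of all calls turned with that scale, from 1006 higher and 1273 lower by edgeR to 1252 higher and 548 lower, the median of all genes moving to 0.06. DESeq2 called 10 synthetases, all cytosolic and all among the 15, and WARS, VARS2, WARS2, NARS2 and HARS2 were lost. DESeq2 called 6.72% of all genes, 2.43% higher. Fitting all 8 libraries together, with 1 shared spread for both lines, left AARS, CARS, MARS, SARS and YARS called, where only 1.25% of all genes were called, 0.582% higher. NARS2, WARS2 and WARS were the calls that leaving out a library could remove.

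All 7 cytosolic genes with a response element core in their window were among those that rose in HT29 (7.76% of all genes called higher), with a median log2 fold change of 0.37. Of the 9 cytosolic genes with a listed window and no such core 3 rose (SARS, EPRS and WARS), with a median of 0.08, and of the 4 without a listed window 1 rose (YARS). YARS2, the only mitochondrial gene with a core, had a value of 0.06 ± 0.09 and was not called. These counts are a description, and SARS, with the third largest rise, had no match in its window.

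**Figure D3:**
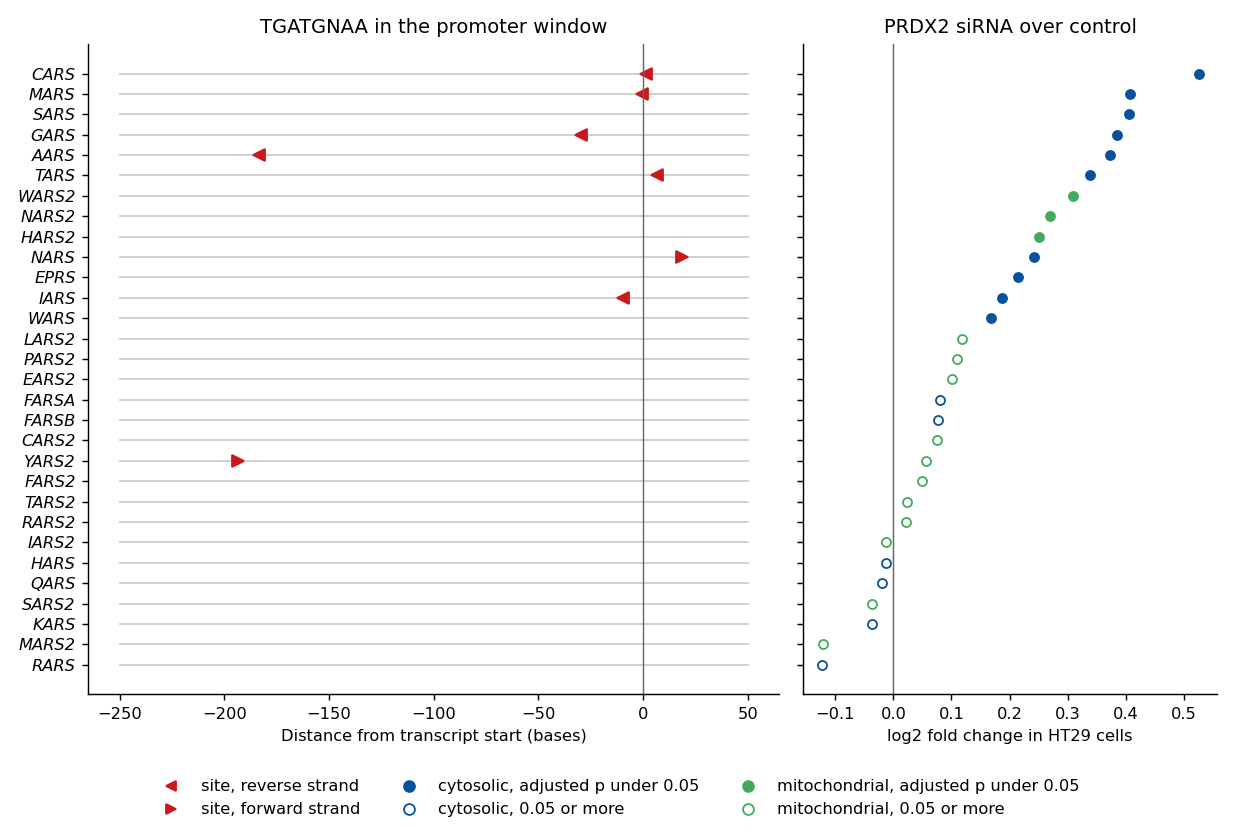
The left panel marks, for the 30 synthetases with a listed promoter window, the place of each TGATGNAA match relative to the transcript start, with arrowheads for its strand, and the right panel gives the log2 fold change of the same gene in HT29. Of the 8 genes with a match, CARS, MARS, GARS, AARS, TARS, NARS and IARS are filled blue and YARS2 is an open green point.

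The SW480 control libraries differed from each other in a way that touches every SW480 result. Over the 36 synthetases the log2 ratio of control replicate 1 to control replicate 2 ran from -0.56 for FARSA to 0.41 for DARS, and 14 of the 36 genes differed by more than 1.2-fold. In the HT29 controls it ran from -0.23 to 0.13 and no gene differed by that much. The ratio in SW480 followed the GC content of the transcript, with a Spearman correlation of -0.81 over the 36 genes and -0.71 over all 13639 tested genes with a known GC content. It was -0.59 and -0.19 in HT29. These are descriptions across genes of the same pair of libraries, and genes are not independent replicates. Replicate 1 was higher for AT-rich mRNAs such as DARS (38.1% GC) and lower for GC-rich ones such as VARS (61.7% GC).

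**Figure D4:**
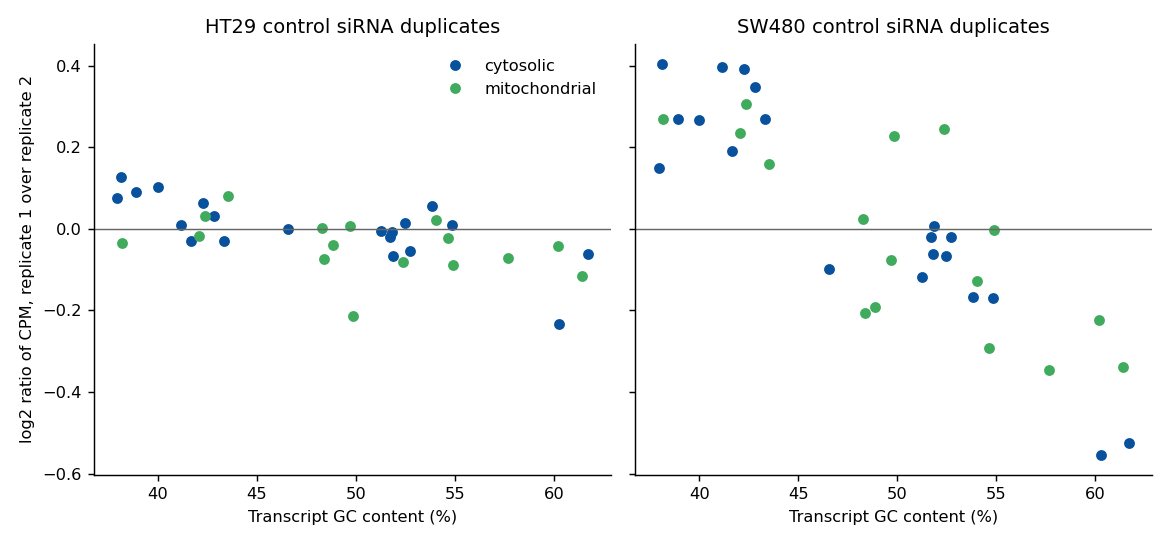
Each point is a synthetase, the horizontal axis is the GC content of its transcript in percent and the vertical axis the log2 ratio of CPM between the control siRNA duplicates of HT29 (left) and SW480 (right). The SW480 points slope down from 0.41 to -0.56, and the HT29 points stay between 0.13 and -0.23.

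In SW480 cells none of the 36 synthetases was called after PRDX2 knockdown by edgeR, and neither DESeq2 nor limma called any. The threshold was passed by 3.3% of the 14112 genes tested, 1.22% in the higher and 2.08% in the lower direction, and DESeq2 called 4.86% of them, 1.72% higher. In all, 7 synthetases (6 cytosolic, 1 mitochondrial) had an unadjusted edgeR p under 0.05, as did 3447 of the 14112 genes tested. The median log2 fold change was 0.05 for cytosolic and 0.00 for mitochondrial enzymes, as it was 0.00 over all genes. Both knockdown libraries lay above both controls for 12 genes (8 cytosolic, 4 mitochondrial) and below them for 5, where 29.6% and 29.1% of all genes did so. The summed level was 2912 and 2734 TPM against 3048 and 3039 TPM for cytosolic enzymes. For mitochondrial enzymes it was 582.6 and 558.1 TPM against 602.5 and 624.9 TPM. On the TPM scale the median log2 fold change over all genes was itself 0.08 to 0.09, so no rise is read from these sums.

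Several genes that rose in HT29 were higher in both SW480 knockdown libraries, with intervals that exclude 0 before adjustment. AARS was at 164.1 and 171.9 CPM in the controls and at 201.6 and 210.5 CPM after knockdown (log2 fold change 0.30 ± 0.10, edgeR adjusted p = 0.137). CARS was at 94.7 and 94.2 CPM against 112.5 and 117.0 CPM (0.28 ± 0.11, edgeR adjusted p = 0.149). YARS was at 151.1 and 153.3 CPM against 190.5 and 184.4 CPM (0.30 ± 0.10, edgeR adjusted p = 0.128).

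MARS was at 184.7 and 207.5 CPM in the SW480 controls and at 241.1 and 236.4 CPM after knockdown (0.29 ± 0.11, edgeR adjusted p = 0.157). The log2 fold changes of these 4 genes kept their sign when either control library was left out. Without control replicate 1 and 2 in turn they were 0.26 and 0.33 for AARS and 0.28 and 0.28 for CARS. For YARS they were 0.29 and 0.31, and for MARS 0.20 and 0.37. In such fits the lone control is assumed to vary like the PRDX2 siRNA pair, the only source of the spread.

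For TARS, GARS and EPRS the direction in SW480 turned with the control library left out. TARS was at 332.9 and 261.7 CPM in the SW480 controls and at 277.7 and 269.4 CPM after knockdown, both knockdown values lying between the controls. Its log2 fold change was -0.12 ± 0.13, and it was 0.06 without control replicate 1 and -0.28 without control replicate 2. GARS was at 291.3 and 241.8 CPM against 273.3 and 275.8 CPM, and EPRS at 314.6 and 239.8 CPM against 241.1 and 248.3 CPM. Their values were 0.18 and 0.03 without control replicate 1 and -0.09 and -0.36 without control replicate 2.

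IARS was at 347.1 and 288.0 CPM in the SW480 controls against 327.2 and 332.8 CPM, and NARS at 131.3 and 115.0 CPM against 127.5 and 126.9 CPM, with the knockdown libraries between the controls in both. The transcripts of TARS, GARS, EPRS, IARS and NARS have a GC content of 38.9% to 43.3%, on the side where control replicate 1 was the higher. SARS (159.6 and 161.7 CPM against 162.6 and 168.1 CPM) and WARS (179.9 and 187.7 CPM against 201.4 and 203.7 CPM) have closer controls and values of 0.04 ± 0.10 and 0.14 ± 0.10. For SARS a rise as large as its own in HT29 (0.41) lies outside the SW480 95% interval, which reached 0.28. For WARS the interval reached 0.38 and holds its own HT29 value of 0.17.

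FARSA had the largest SW480 value of the family and the widest controls, at 63.0 and 92.5 CPM against 112.0 and 108.9 CPM (0.51 ± 0.17, edgeR adjusted p = 0.118). It was 0.25 without control replicate 1 and 0.81 without control replicate 2. QARS, the glutaminyl enzyme, was on the lower side, at 182.6 and 205.2 CPM against 154.6 and 164.2 CPM (-0.28 ± 0.11, edgeR adjusted p = 0.170), with -0.37 and -0.20 without either control in turn.

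The mitochondrial enzymes that rose in HT29 did not move together in SW480. VARS2 was at 21.5 and 25.2 CPM in the controls against 30.2 and 28.3 CPM after knockdown (0.33 ± 0.15). WARS2 lay on the opposite side, at 14.23 and 11.51 CPM against 8.936 and 10.19 CPM (-0.42 ± 0.19). HARS2 (56.9 and 55.9 CPM against 55.4 and 56.1 CPM) and NARS2 (45.0 and 38.2 CPM against 41.4 and 41.6 CPM) had values of -0.02 and -0.00. None of the 4 was called.

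How many synthetases were called in SW480 depended on the treatment of the control libraries, as did the calls over all genes. Without control replicate 1 the count was 9 higher and 2 lower, where 24.1% of all genes were called (11.2% higher, 12.9% lower). Without control replicate 2 it was 12 higher and 8 lower, where 52.2% of all genes were called (25.8% higher, 26.4% lower). In both cases AARS, CARS, CARS2, FARSA, MARS and YARS were called higher and QARS and RARS2 lower. With counts corrected for transcript GC content in each library, AARS, CARS, FARSA, FARSB, GARS, NARS and YARS were called higher and QARS lower, where 16.5% of all genes were called, 8.12% higher. Of these 7 higher genes 5 were also called in HT29. In HT29 the same correction kept the 15 calls and added RARS as lower, with 20.5% of all genes called, 8.93% higher. The fit of all 8 libraries called AARS, CARS, FARSA, MARS and YARS higher and QARS and RARS2 lower in SW480, where it called 16.3% of all genes, 7.28% higher. Leaving out a PRDX2 siRNA library gave 0 calls.

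The difference of the knockdown effect between the lines was tested for each gene in 1 fit of all 8 libraries, and no synthetase passed, where 1.12% of the 14772 genes tested did, 0.616% with the larger and 0.508% with the smaller value in HT29. At an unadjusted p under 0.05 there were 9 synthetases (6 cytosolic, 3 mitochondrial) and 2835 of the 14772 genes, and DESeq2 and limma called 0 synthetases. The lowest values were those of SARS, with a difference (HT29 minus SW480) of 0.37 ± 0.09 on the log2 scale (edgeR adjusted p = 0.0853), WARS2 with 0.73 ± 0.20 (edgeR adjusted p = 0.0956) and TARS with 0.46 ± 0.13 (edgeR adjusted p = 0.115). After the GC correction SARS, TARS, WARS2, CARS and QARS were called, all with the larger value in HT29, among 6.39% of all genes (2.81% in that direction). For SARS the corrected difference was 0.41 (edgeR adjusted p = 0.00284). Over all cytosolic enzymes the median difference was smaller after the correction, 0.04 against 0.14 before it. Over the mitochondrial enzymes it was 0.09 against 0.05, and over all genes -0.02 against 0.01.

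For some genes the estimated difference was small, with intervals that do not exclude a difference of the size of the HT29 change of WARS (0.17). That of YARS was 0.02 with a 95% interval from -0.17 to 0.22, that of WARS 0.03 from -0.18 to 0.24, and that of AARS 0.08 from -0.12 to 0.28. Leaving out SW480 control replicate 1 gave 6 called differences, all with the larger value in HT29, where 9.08% of all genes were called (4.92% larger, 4.16% smaller in HT29). Leaving out control replicate 2 gave 17, of which 14 were larger and 3 smaller in HT29, where 35.5% of all genes were called (18.1% and 17.4%). CARS, GARS, SARS and TARS were called in both cases.

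With control siRNA alone, SW480 and HT29 differed in many synthetases, as they did in 73.2% of all genes tested, 39% being higher and 34.2% lower in SW480. Of the cytosolic enzymes 12 were lower and 4 higher in SW480, and of the mitochondrial enzymes 6 were lower and 2 higher. VARS showed the largest difference, at 84.9 ± 2.36 TPM (SD, n = 2) in HT29 and 38.7 ± 9.72 TPM in SW480 (log2 difference -1.25 ± 0.14). AARS was at 215 ± 2.06 TPM against 111.1 ± 3.203 TPM (-1.08 ± 0.07). YARS differed by -0.95 ± 0.06 and WARS2 by -0.92 ± 0.14, both lower in SW480. All 7 cytosolic genes with a response element core were lower in SW480, with a median difference of -0.58.

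The enzymes higher in SW480 were DARS, the aspartyl enzyme (86.8 ± 5.55 TPM in HT29 and 184.3 ± 37.2 TPM in SW480, log2 difference 0.96 ± 0.12), HARS (0.78 ± 0.08), WARS (0.64 ± 0.07) and RARS (0.52 ± 0.11), with LARS2 (0.75 ± 0.09) and NARS2 (0.41 ± 0.11) among mitochondrial enzymes. On the TPM scale limma shifted the median of all genes from 0.06 to between 0.16 and 0.18, and then called 6 cytosolic enzymes higher and 9 lower, and 4 mitochondrial enzymes higher and 3 lower, among 72.9% of all genes (43.5% higher). Line, medium and any difference in library preparation cannot be told apart here.

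Other genes of protein synthesis were followed from lists that were chosen with earlier results of these data known. All 5 genes of cytosolic elongation fell in HT29 (9.82% of all genes lower), with log2 fold changes from -0.20 to -0.09, and EEF1A1 (-0.30 ± 0.06) and EEF1G (-0.41 ± 0.09) also fell in SW480. On the TPM scale, which moved the median of all genes by 0.06 in HT29, the groups of EEF2 overlapped, at 1805 and 1856 TPM in the HT29 controls against 1766 and 1811 TPM. EEF1A1, the carrier of charged transfer RNA to the ribosome, has many processed copies in the genome, which makes its count uncertain. Of the 4 mitochondrial elongation genes TUFM (0.15 ± 0.04) and TSFM (0.24 ± 0.06) rose in HT29 and none was called in SW480. No gene was called in either line among 5 accessory genes of mitochondrial charging and 5 genes of editing and selenocysteine synthesis.

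Genes of the ATF4 pathway other than synthetases, from a list chosen with the same knowledge, were mostly higher in HT29. Of 23 genes tested 21 rose and 1 fell, where 7.76% of all genes were called higher and 9.82% lower, with a median log2 fold change of 0.42. The largest rises were those of ATF3, a stress-induced transcription factor (0.93 ± 0.06), ASNS (0.80 ± 0.04), CHAC1, which degrades glutathione (0.69 ± 0.05), and SESN2, an amino acid sensor that restrains mTORC1 (0.67 ± 0.06). ATF5, itself a transcription factor under translational control, was the one that fell (-0.37 ± 0.09), and is named after its value was seen. ATF4 mRNA itself rose (0.23 ± 0.03). The synthetases with a response element core had a median of 0.37.

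In SW480 5 of 24 ATF4 pathway genes tested rose and none fell, where 1.22% of all genes were called higher and 2.08% lower, with a median of 0.29. DDIT3, encoding CHOP, was at 25.1 and 21.7 CPM against 38.1 and 39.4 CPM (0.73 ± 0.14), and ASNS at 100.2 and 82.4 CPM against 140.6 and 138.4 CPM (0.61 ± 0.12). CEBPB (0.73 ± 0.13) and PHGDH, the first enzyme of serine synthesis (0.61 ± 0.11), were the others among the 4 largest, with STC2 as the fifth call (0.50 ± 0.10). ATF4 mRNA itself was at 243.8 and 218.2 CPM in the SW480 controls against 234.4 and 226.8 CPM (-0.001 ± 0.11). Neither ATF4 nor ATF3 (0.28 ± 0.23) was called in SW480, and the groups of both overlapped. Of 9 genes of eIF2α and its regulation, PPP1R15A, which returns eIF2α to its unphosphorylated state, rose in HT29 (0.53 ± 0.04) with PPP1R15B (0.16 ± 0.05). In SW480 PPP1R15A was at 156.3 and 154.2 CPM against 210.6 and 209.8 CPM (0.44 ± 0.10, edgeR adjusted p = 0.0549). PPP1R15B had a value of -0.17 ± 0.13 there, and neither was called in that line. EIF2AK2, the kinase PKR, fell in HT29 (-0.24 ± 0.06) and in SW480 (-0.68 ± 0.14). EIF2AK4, which encodes GCN2, was not called in either line.

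**Figure D5:**
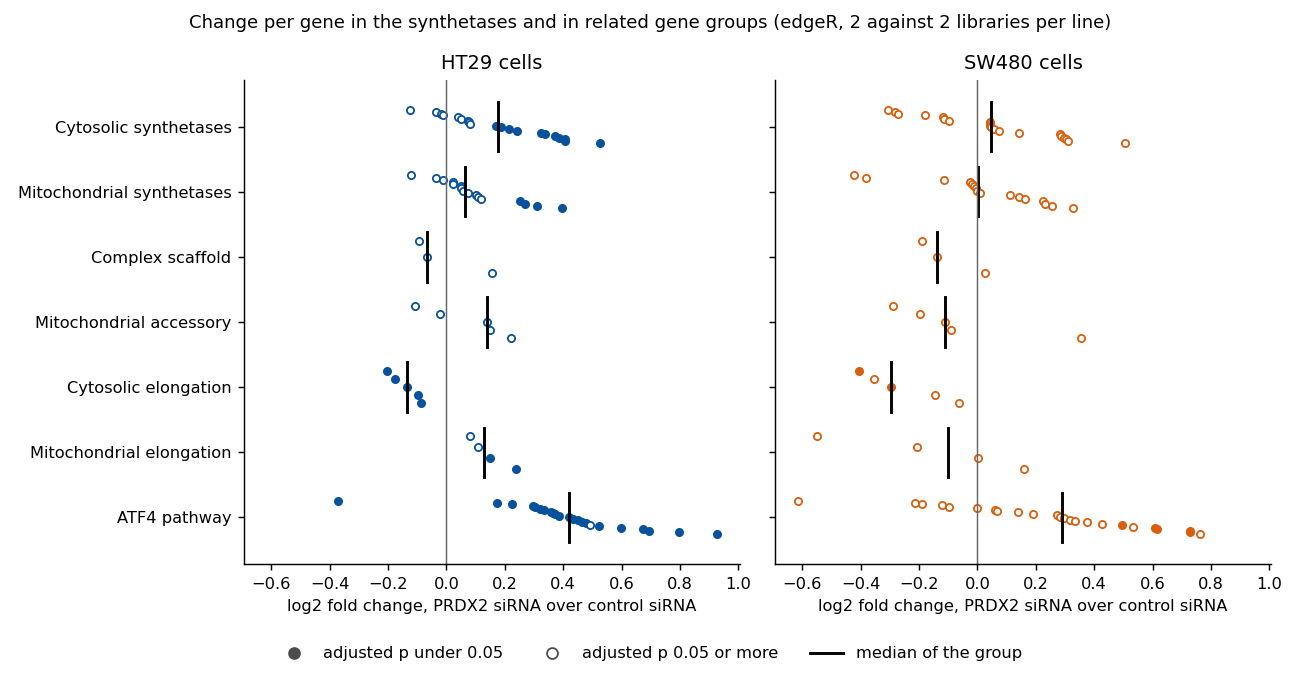
Each point is 1 gene, the horizontal axis is its log2 fold change after PRDX2 siRNA in HT29 (left) or SW480 (right), filled points have an adjusted p under 0.05, and the black bar is the median of the group. In HT29 the medians are 0.18 for cytosolic synthetases, 0.07 for mitochondrial synthetases, 0.42 for the ATF4 pathway and -0.13 for cytosolic elongation.

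Where a synthetase gene lies bears on its counts, since the library kit does not keep the strand of the RNA. In the GENCODE annotation of GRCh37, the assembly behind hg19, 19 of the 36 members have an exon that overlaps an exon of a gene on the other strand, and reads from such stretches cannot be told apart. MARS (chr12:57869228-57911352, plus strand) overlaps DDIT3, which also rose in HT29 (0.52 ± 0.06). HARS (chr5:140052620-140071122, minus strand) and HARS2 (chr5:140071015-140078890, plus strand) overlap each other at their starts, and only HARS2 rose in HT29 (0.25 ± 0.06), with HARS at -0.01 ± 0.05. CARS (chr11:3022152-3078843, minus strand), AARS (chr16:70285886-70323610, minus strand) and YARS (chr1:33240838-33283632, minus strand) also overlap genes of the other strand, while SARS (chr1:109756540-109780804, plus strand) and TARS (chr5:33440802-33468196, plus strand) do not. LARS and RARS2 transcripts share stretches of 50 identical bases with another gene's, so their counts are uncertain. In bulk RNA a change in the make-up of the culture and a change in mRNA per cell cannot be told apart.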

How the data were processed

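Messenger RNA was read in 8 libraries, grouped by the sample labels. As the study's methods give it for HT29, the authors mapped reads with MapSplice to hg19 and estimated refGene mRNAs with RSEM, and from the deposited tables the expected counts and the TPM values were used. The deposited FPKM values were left aside. Rounded counts were tested by the quasi-likelihood method of edgeR 4.0.16 after TMM scaling, within each line, on genes reaching 10 counts in 2 libraries or more. P-values were adjusted by Benjamini-Hochberg over the whole table, at a threshold of 0.05. The difference between lines, and the lines with control siRNA, came from 1 fit of the 8 libraries. CPM are scaled within a line, so lines are compared by TPM. Alternatives were DESeq2 1.42.0, limma 3.58.1 on log2 TPM (pseudocounts 1 and 0.1), RLE scaling, no filter, a replicate block, a loess offset for GC content (span 0.5), a joint fit, and leaving out each library. Code was tested on simulated counts. Intervals cover the spread between these libraries, and the floor of 3 counts covers counting error only.

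The members and lists were chosen with earlier results of these data known. Library values are given for PRDX2, for members past the threshold in a knockdown or in the difference, and for the highest and lowest mean TPM in each compartment. Others were singled out after their values were seen. Each list gives up to 4 genes with the largest change past the threshold in a line. GC content was known for 91.8% of symbols. Promoters are RefSeq's (GRCh38.p14) and gene coordinates GENCODE's (GRCh37).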

Additional observations from a re-analysis of the deposited data

Results flagged for a closer look

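No synthetase differed between the lines by the test of the difference (edgeR, all 8 libraries, Benjamini-Hochberg over all genes tested). Of the 25 ATF4 pathway genes tested 3 differed, where 1.12% of all genes did. DDIT4, an inhibitor of mTORC1, was at 258.1 and 254.1 CPM in the HT29 controls and at 388.6 and 387.5 CPM after knockdown, and at 27.08 and 27.92 CPM against 23.73 and 23.6 CPM in SW480, a difference (HT29 minus SW480) of 0.82 on the log2 scale (edgeR adjusted p = 0.00722). PSPH, the last enzyme of serine synthesis, was at 81.76 and 82.19 CPM against 115.1 and 113.4 CPM in HT29 and at 60.06 and 62.87 CPM against 52.48 and 55.06 CPM in SW480, a difference of 0.67 (edgeR adjusted p = 0.020). VLDLR, a lipoprotein receptor, was at 10.13 and 11.47 CPM against 15.01 and 14.2 CPM in HT29 and at 23.14 and 25.36 CPM against 14.69 and 16.94 CPM in SW480, a difference of 1.05 (edgeR adjusted p = 0.0350). All 3 lay on opposite sides of their controls in the 2 lines, which picking genes by that difference favours. Both knockdown libraries were above both controls for 28.8% of all genes in HT29 and below them for 29.1% in SW480. None of the 3 falls in SW480 was called in that line (edgeR adjusted p = 0.354, 0.335 and 0.0697).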

How the results depend on the processing

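In HT29 the 15 calls became 5 when all 8 libraries were fitted together and 13 to 14 when a library was left out. In SW480 the 0 calls became 8 with the GC correction, 7 with all 8 libraries fitted together and 0 to 20 when a library was left out. The difference between lines went from 0 calls to 5 with the GC correction and to between 0 and 17 when a library was left out.

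Same-numbered libraries deviated together only weakly (correlation 0.10 in HT29 and 0.11 in SW480, with 2 pairs), so the numbers are not shown to pair the samples. With a replicate block 1 synthetase (FARSA) was called in SW480, and 9 with the block and the GC correction together. The difference between lines then gave 3 calls (QARS, SARS and TARS). In HT29 the block kept the 15 calls.

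Limma on log2(TPM + 1) and log2(TPM + 0.1), which shifts the median of all genes by 0.06 in HT29 and 0.08 to 0.09 in SW480, moved the HT29 median log2 fold changes to 0.243 and 0.245 for cytosolic and 0.129 and 0.132 for mitochondrial enzymes, and the SW480 medians to 0.140 and 0.140, and 0.0921 and 0.0975. The SW480 mitochondrial median was 0.0656 with the GC correction and 0.0652 with the block added. Leaving out a library gave HT29 mitochondrial medians from 0.0316 to 0.105, and SW480 medians from -0.0485 to 0.0891 for cytosolic and 0.0141 to 0.0728 for mitochondrial enzymes.

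Some SW480 log2 fold changes of genes called in HT29 changed sign, none of them called in SW480 by the edgeR fit of that line. HARS2 became 0.0251 with the GC correction, 0.0251 with block and correction, and 0.0711 and 0.0723 by limma. NARS2 became 0.00 with the block, 0.138 with the correction, 0.138 with both, and 0.0840 and 0.0861 by limma. SARS became -0.0217 and -0.0216, and TARS 0.0163 and 0.0181, with the correction and with both. Leaving out a library gave -0.36 to 0.0267 for EPRS, -0.0861 to 0.18 for GARS, -0.0739 to 0.19 for IARS, -0.0475 to 0.14 for NARS, -0.12 to 0.11 for NARS2 and -0.28 to 0.0618 for TARS. The causes were not tested. SW480 controls that differ along GC content limit what 2 libraries a group can show there, most for AT-rich and GC-rich mRNAs.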
